A study of Mus musculus with 6 samples.

Results

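Potassium channel genes were taken from the count table by name: a row counted if its gene name was Kcn followed by a letter from a to v and then only digits or letters, with a mean of at least 10 raw counts over the 6 libraries. The rule matched 99 names and kept 82 members, of 55367 rows in the table and 16976 genes that could be tested. No difference between genotypes entered the rule, but the group was chosen with earlier results of these data known. Of the members, 78 encode channel subunits or proteins that bind them. The other 4 are the non-coding transcripts Kcnd3os, Kcnmb4os2 and Kcnq1ot1, and Kcnrg, which encodes a regulator of channel assembly. The members just inside the count minimum were Kcnk12 with a mean of 11.7 counts, Kcnj14 with 12 and Kcng3 with 12.7, and the names just outside it were Kcnj15 with 5.67, Kcnab3os with 5.5 and Kcng2 with 5.17. In all, 17 matched names fell under the minimum. Of these, Kcnk16 and Kcnmb3 had 0 counts in all 6 libraries and so were not detected at this depth.

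The libraries came from cortical neurons of C57BL/6J mouse pups at postnatal day 1 (P1), dissociated and kept for 2 days in vitro. There were 3 libraries from wild-type (WT) pups and 3 from Fmr1-KO pups, which lack the fragile X protein FMRP, an RNA-binding protein. The Fmr1-KO mouse is a whole-animal knockout, so the non-neuronal cells of the culture lack FMRP too. According to the study's methods, the suspension was passed through a strainer and depleted of ACSA2+ astrocytes and of myelin before plating. Fmr1-KO was compared with WT in the study to ask how the targets of nonsense-mediated mRNA decay (NMD) behave without FMRP. Total counts ran from 30348556 to 35126207 per library, and 58043 to 76381 of these were on potassium channel genes. The targeted gene was lower in the libraries labelled Fmr1-KO: Fmr1 mRNA stood at 113 ± 4.50 CPM in WT and 57.4 ± 3.67 CPM in Fmr1-KO (SD, n = 3), or 50.6% of WT, with a log2 fold-change of -0.98 (SE 0.043, BH-adjusted P 2.25e-13).

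Potassium channels let potassium leave the cell, and in neurons they set the resting potential, end each action potential and limit repetitive firing. Voltage-gated (Kv) channels are assembled from alpha subunits with accessory proteins on the inside or at the side of the pore. Inward rectifiers and tandem-pore (K2P) channels act near rest, BK and SK channels open with calcium, and glial inward rectifiers take up the potassium that firing neurons release. FMRP is known to bind several of the mRNAs concerned and to contact some of the channel proteins.

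Levels are given as CPM, counts scaled to the size of each library by edgeR's TMM method, and levels of different genes are ranked as CPM per kb of exon. Fold-changes are on the log2 scale, Fmr1-KO relative to WT, so that a negative value means a lower level in Fmr1-KO. Each comes with a standard error (SE) and a P value from the quasi-likelihood F test of edgeR, adjusted over all 16976 genes by the Benjamini-Hochberg (BH) method. A gene was called when this BH-adjusted P was under 0.05. The labels do not say whether the replicates were separate cultures, while the paper describes the samples as independently derived and in triplicate. Neither says whether they were separate litters or animals, so the P values measure the spread between these libraries, which may be partly technical. The labels named no batch.

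Potassium channel genes were mostly lower in Fmr1-KO. Of 82 members, 44 were called lower (53.7%) and 12 higher (14.6%), and 26 were not called. Among all genes tested, 21.9% were called lower, 20.7% higher and 42.6% in either direction. The median log2 fold-change of the members was -0.29, beside 0.01 for all genes tested. By at least 2-fold, 12 of the 82 members were called lower, where 2.06% of all genes were, and 0 members were called higher. Those 12 include Kcnk4 and Kcnk12, which passed the count minimum only through their WT counts. The share of all genes called higher by that much was not counted. Of the 56 called members, 24 had a log2 fold-change between -0.5 and 0.5. For 48 members every Fmr1-KO library was below every WT library, against 26.3% of all genes tested, and for 10 members every Fmr1-KO library was above, against 25.4%. Those 48 included each of the 44 members called lower, and 4 that were not called. The 10 that lay above were all called higher, and the other called increases, Kcnk1 and Kcnq1ot1, had overlapping libraries.

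**Figure D1:**
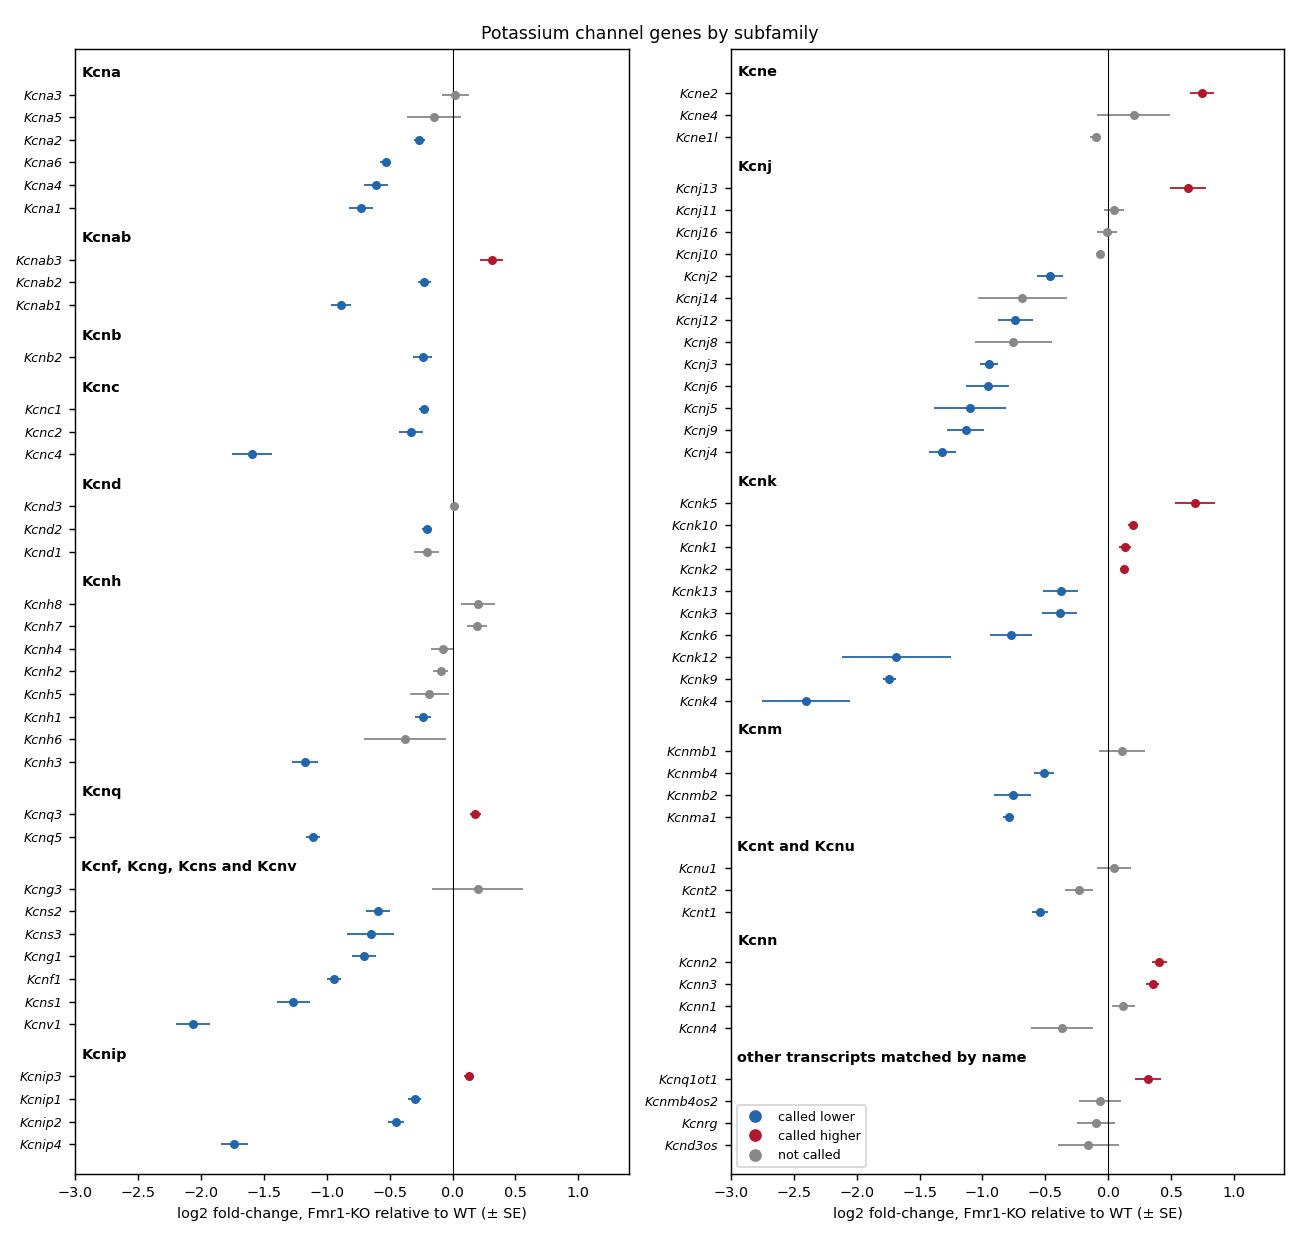
Log2 fold-change of 78 of the 82 members in Fmr1-KO relative to WT (horizontal axis, points, with bars for 1 SE), grouped by subfamily. Blue marks members called lower, red those called higher and grey those not called. The points run from -2.40 for Kcnk4 to 0.75 for Kcne2. The called members drawn are all blue in the Kcna, Kcnb, Kcnc, Kcnd, Kcnh, silent-subunit, Kcnm, and Kcnt and Kcnu groups.

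The excess of decreases was seen both among members at 10 CPM or more and among those from 1 to under 10 CPM. Of 36 members with a mean of at least 10 CPM, 21 were lower and 9 higher, beside 26.2% and 24.7% of the 10763 tested genes at that level. Of 36 members from 1 to under 10 CPM, 20 were lower and 3 higher, beside 18.9% and 18.2% of 3848 genes. Of 10 members under 1 CPM, 3 were lower and 0 higher, beside 7.36% and 6.13% of 2365 genes. Among these 3, Kcnk4 had 5, 6 and 5 counts in Fmr1-KO and Kcnk12 had 10, 1 and 5. Both passed the count minimum only through their WT counts, so no excess is read from this level.

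These were bulk libraries, so fewer cells of a type and less RNA per cell cannot be told apart. The levels of cell type markers differed between genotypes. Of 10 general markers of neurons, 9 were lower and 1 higher, and their summed level was 4888 to 5018 CPM in WT and 4225 to 4422 CPM in Fmr1-KO. All 10 markers of proliferating cells were higher, at 524 to 574 CPM in WT and 910 to 991 CPM in Fmr1-KO. Markers of excitatory neurons (3 lower and 5 higher of 8, summed 600 to 611 CPM in WT and 591 to 622 CPM in Fmr1-KO) and of GABAergic interneurons (4 and 4 of 8, summed 730 to 757 CPM in WT and 783 to 861 CPM in Fmr1-KO) went both ways. Of 8 neural progenitor markers, 4 were higher and 0 lower, at 2382 to 2396 CPM in WT and 2692 to 2762 CPM in Fmr1-KO. Astrocyte markers (4 lower, 2 higher of 8) summed to 5090 to 5211 CPM in WT and 4488 to 4861 CPM in Fmr1-KO. All 8 oligodendrocyte lineage markers were lower (1884 to 2046 CPM against 1075 to 1159 CPM), as were 7 of 8 microglial markers (237 to 253 CPM against 148 to 165 CPM). Of 7 endothelial and mural markers tested, 3 were lower and 3 higher, at 253 to 275 CPM in WT and 401 to 420 CPM in Fmr1-KO, a sum to which Acta2 contributed 176 and 322 CPM on average. None of these markers was at 0. The cultures thus held the RNA of neurons and of each of these other cell types, and the part of these shifts in the potassium channel results was not tested.

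By level, the potassium channel genes of these cultures were led by Kcnj10, the inward rectifier of glia, with 64.4 CPM per kb of exon over the 6 libraries. Kcne1l, an accessory subunit gene on the X chromosome also known as Kcne5, had 28.02, and the leak channel gene Kcnk1 had 25.6. The A-type channel gene Kcnd3 and the calcium sensor gene Kcnip3 followed at 17.8 and 17.3 CPM per kb. The median member had 1.64 CPM per kb and the lowest, Kcng3, had 0.114. Summed over all members, the level was 372.0 ± 1.95 CPM per kb in WT and 330.0 ± 4.35 CPM per kb in Fmr1-KO (SD, n = 3), which is 88.7% of WT. None of the 12 members called lower by at least 2-fold was among the 5 genes just named.

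**Figure D2:**
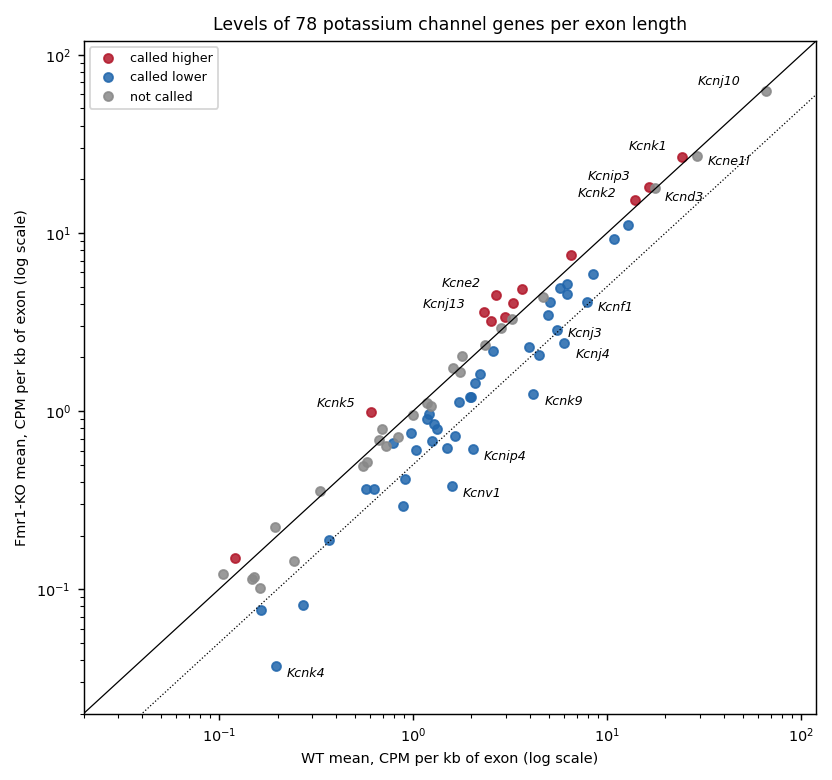
Mean level of 78 of the 82 members in Fmr1-KO (vertical axis) against WT (horizontal axis), in CPM per kb of exon on log scales, n = 3 libraries each. The solid line marks equal levels and the dotted line a level in Fmr1-KO lower by 2-fold. Most blue points lie between the lines, Kcnk9, Kcnip4, Kcnv1 and Kcnk4 are among those below the dotted line, and the red points stay close to the solid line.

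Of 15 subfamilies, 12 had a summed level per kb that was lower in all 3 Fmr1-KO libraries than in any WT library. Only the SK channel subfamily Kcnn was higher in all 3, and the sums of Kcne and Kcnk overlapped between genotypes. Relative to WT the sums ran from 51.2% for the silent subunits (Kcnf, Kcng, Kcns and Kcnv) and 65.4% for the BK channel subunits (Kcnm) to 125% for Kcnn.

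**Figure D3:**
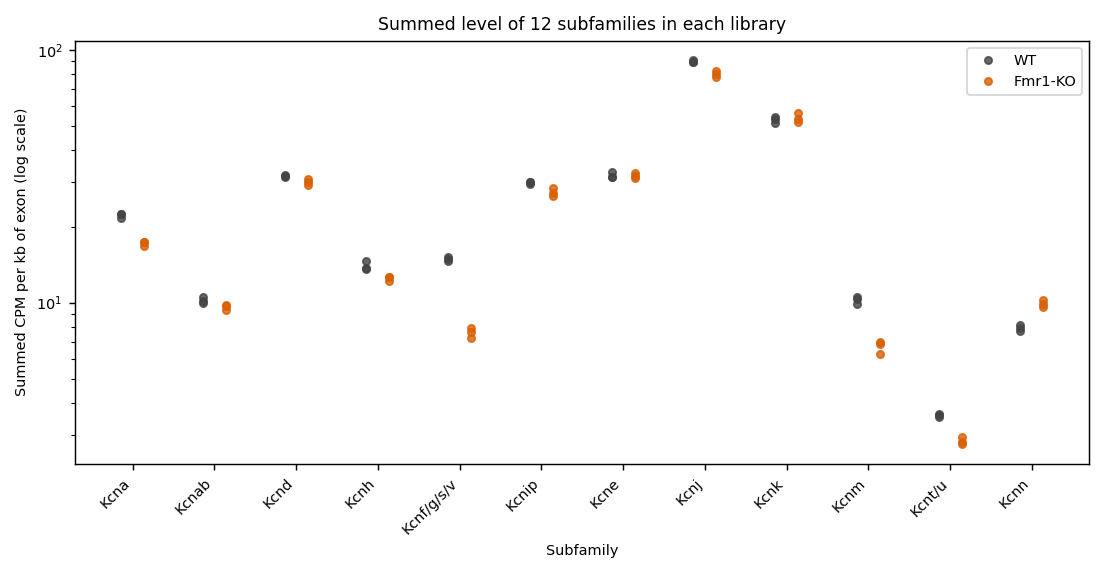
Summed level of 12 subfamilies in each library, in CPM per kb of exon on a log scale (vertical axis), with 3 WT libraries in dark grey and 3 Fmr1-KO libraries in orange. The grey and orange points separate downwards most for the silent subunits, at 51.2% of WT, and upwards for Kcnn, at 125.2% of WT.

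The Kcna genes encode Kv1 alpha subunits, low-threshold channels found mainly on axons. Of 6 members, 4 were lower and 0 higher, and the subfamily sum was 22.2 ± 0.478 CPM per kb in WT and 17.1 ± 0.330 CPM per kb in Fmr1-KO (SD, n = 3), or 77.2% of WT. Kcna6, the most abundant per kb, stood at 48.2, 51.2 and 51.6 CPM in WT and 34.6, 32.96 and 36.7 CPM in Fmr1-KO. Its log2 fold-change was -0.53 (SE 0.047, BH-adjusted P 8.39e-09), with no overlap between genotypes. Kcna1, whose mutation in mice and people disturbs axonal repolarization, stood at 8.75, 9.04 and 10.8 CPM in WT and 5.75, 5.98 and 5.55 CPM in Fmr1-KO, with a log2 fold-change of -0.73 (SE 0.096, BH-adjusted P 2.49e-06). Its lowest WT library was well above its highest Fmr1-KO library. Kcna4, the inactivating member, fell by 0.61 on the log2 scale (BH-adjusted P 2.32e-05), and Kcna2 fell by 0.26 (BH-adjusted P 4.04e-05). Kcna3, a channel also found in lymphocytes and microglia, and Kcna5 had overlapping libraries and log2 fold-changes of 0.022 (BH-adjusted P 0.894) and -0.15 (BH-adjusted P 0.626). On chromosome 6, Kcna5, Kcna1 and Kcna6 lie in a row on the same strand, with gaps of 105.0 and 61.9 kb in GRCm38, and on chromosome 3 Kcna3 and Kcna2 lie 63.1 kb apart. In each row, called and not called members stood next to each other.

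The Kcnab genes encode beta subunits that bind Kv1 channels from the inside. Kcnab1, which confers inactivation on some Kv1 channels, stood at 11.1, 10.6 and 10.5 CPM in WT and 5.87, 5.88 and 5.69 CPM in Fmr1-KO, with a log2 fold-change of -0.89 (SE 0.082, BH-adjusted P 1.46e-08). Kcnab2, the most abundant at 5.30 CPM per kb, was lower by a smaller amount, at -0.23 (BH-adjusted P 9.58e-04). Kcnab3 went the other way, at 8.14, 9.74 and 10.1 CPM in WT and 12.3, 12.2 and 10.3 CPM in Fmr1-KO, with a log2 fold-change of 0.31 (SE 0.091, BH-adjusted P 0.00859). Its highest WT library was just below its lowest Fmr1-KO library, and without WT replicate 1 it was not called (0.22, BH-adjusted P 0.0759).

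The Kcnb genes encode delayed rectifiers of the cell body and proximal dendrites. Kcnb2 stood at 12.7, 11.8 and 11.2 CPM in WT and 10.1, 10.4 and 9.83 CPM in Fmr1-KO, with a log2 fold-change of -0.24 (SE 0.075, BH-adjusted P 0.0148) and no overlap between genotypes. It was not called without Fmr1-KO replicate 3 (-0.22, BH-adjusted P 0.0556) or without WT replicate 1 (-0.19, BH-adjusted P 0.0895).

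The silent subunits do not form channels alone but join Kcnb subunits and alter how these open. Of 7 members, 6 were lower and 0 higher, and the median log2 fold-change was -0.70. Kcnv1 (ENSMUSG00000022342.6, chr15:45106284-45114920, minus strand) stood at 6.96, 8.29 and 6.65 CPM in WT and 1.88, 1.41 and 1.93 CPM in Fmr1-KO. Its log2 fold-change was -2.06 (SE 0.13, BH-adjusted P 8.88e-11), and every WT library was far above every Fmr1-KO library. Kcns1, a gene studied in pain sensitivity, stood at 4.17, 4.02 and 3.98 CPM in WT and 1.66, 1.80 and 1.61 CPM in Fmr1-KO, with a log2 fold-change of -1.27 (SE 0.13, BH-adjusted P 9.80e-08). Kcnf1, the most abundant silent subunit gene at 5.97 CPM per kb, stood at 35.6, 38.3 and 39.02 CPM in WT and 18.97, 18.9 and 20.7 CPM in Fmr1-KO, with a log2 fold-change of -0.95 (SE 0.055, BH-adjusted P 1.65e-11). In all of these the genotypes were clearly apart. Kcng1, Kcns2 and Kcns3 fell by 0.70, 0.59 and 0.65 on the log2 scale. Of these, Kcns3 (BH-adjusted P 0.00742) was not called without WT replicate 1 (-0.53, BH-adjusted P 0.0555). Kcng3 had few counts and a log2 fold-change of 0.20 (SE 0.36, BH-adjusted P 0.698).

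The Kcnc genes encode Kv3 channels, which repolarize fast enough to allow high-frequency firing. Kcnc1, Kcnc2 and Kcnc4 were lower. Kcnc4 (ENSMUSG00000027895.9, chr3:107438303-107459552, minus strand), an inactivating member, stood at 3.31, 3.18 and 3.33 CPM in WT and 1.14, 0.882 and 1.21 CPM in Fmr1-KO. Its log2 fold-change of -1.59 (SE 0.16, BH-adjusted P 5.02e-08) was the largest of these, and its libraries were far apart. Kcnc1, the most abundant at 10.1 CPM per kb, stood at 104, 98.2 and 106 CPM in WT and 88.02, 84.2 and 90.7 CPM in Fmr1-KO, with a log2 fold-change of -0.23 (SE 0.038, BH-adjusted P 5.34e-05). Kcnc2 had a log2 fold-change of -0.33 (BH-adjusted P 0.00948) and was not called without Fmr1-KO replicate 3 (-0.27, BH-adjusted P 0.0569) or without WT replicate 1 (-0.25, BH-adjusted P 0.079). None of these genes overlapped between genotypes.

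The Kcnd genes encode Kv4 channels, which carry the A-type current of dendrites, together with KChIP proteins from the Kcnip genes and the transmembrane partners Dpp6 and Dpp10. Kcnd3, the most abundant alpha subunit, was not called, at 174, 165 and 172 CPM in WT and 169.6, 170.2 and 175 CPM in Fmr1-KO, with a log2 fold-change of 0.012 (SE 0.032, BH-adjusted P 0.788) and overlapping libraries. Kcnd2 was lower, at 65.6, 67.2 and 65.2 CPM in WT and 57.3, 54.3 and 59.8 CPM in Fmr1-KO, with a log2 fold-change of -0.21 (SE 0.041, BH-adjusted P 2.93e-04) and no overlap. Kcnd1 had a log2 fold-change of -0.21 (BH-adjusted P 0.098) without overlap, and was called without WT replicate 3 (-0.27, BH-adjusted P 0.0446). Of the 4 Kcnip members, 3 were lower and 1 higher. Kcnip4 (ENSMUSG00000029088.16, chr5:48389502-49524907, minus strand) stood at 7.48, 7.20 and 7.46 CPM in WT and 2.09, 2.42 and 2.16 CPM in Fmr1-KO, with a log2 fold-change of -1.73 (SE 0.11, BH-adjusted P 5.54e-11). The libraries of the 2 genotypes were far apart. Kcnip2 and Kcnip1 had log2 fold-changes of -0.45 (BH-adjusted P 9.57e-06) and -0.30 (BH-adjusted P 5.68e-05). Kcnip3, also known as calsenilin or DREAM and the most abundant of the 4, stood at 59.1, 60.2 and 56.6 CPM in WT and 64.6, 61.9 and 66.2 CPM in Fmr1-KO, with a log2 fold-change of 0.13 (SE 0.040, BH-adjusted P 0.0105). Its call did not hold without Fmr1-KO replicate 3 (0.11, BH-adjusted P 0.0654) or without WT replicate 3 (0.11, BH-adjusted P 0.0643). Dpp6 stood at 113, 114 and 115 CPM in WT and 77.7, 76.7 and 81.9 CPM in Fmr1-KO, with a log2 fold-change of -0.53 (SE 0.035, BH-adjusted P 9.02e-11), and Dpp10 had one of -0.77 (BH-adjusted P 2.56e-10).

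The Kcnh genes encode the eag, erg and elk channels, which open slowly or recover slowly and shape firing patterns. Of 8 members, 2 were lower, 0 higher and 6 not called, a share of lower genes close to the 21.9% of all genes tested. Kcnh3, an elk channel of the forebrain, stood at 9.35, 10.1 and 8.93 CPM in WT and 4.80, 3.72 and 4.02 CPM in Fmr1-KO, with a log2 fold-change of -1.18 (SE 0.10, BH-adjusted P 5.94e-09). Its genotypes did not overlap. Kcnh1, an eag channel, had a log2 fold-change of -0.23 (BH-adjusted P 0.00635) and was not called without WT replicate 1 (-0.18, BH-adjusted P 0.0543). Kcnh2, the erg channel best known from the heart and the most abundant of the 8 at 4.51 CPM per kb, stood at 21.9, 23.1 and 22.7 CPM in WT and 21.4, 19.7 and 22.2 CPM in Fmr1-KO, with overlapping libraries and a log2 fold-change of -0.096 (SE 0.058, BH-adjusted P 0.2). Kcnh7, another erg channel, had a log2 fold-change of 0.20 (BH-adjusted P 0.055) with overlapping libraries, and was called in 6 of 14 alternatives, among them without WT replicate 2 (0.33, BH-adjusted P 4.42e-04). Kcnh4, Kcnh5, Kcnh6 and Kcnh8 had log2 fold-changes of -0.079, -0.19, -0.38 and 0.20, and their libraries overlapped.

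The Kcnq genes encode the M-current channels, which restrain repetitive firing and are closed by muscarinic signalling. In forebrain neurons they are assembled from several Kcnq subunits. Kcnq5 stood at 34.4, 35.8 and 32.5 CPM in WT and 15.7, 15.7 and 16.3 CPM in Fmr1-KO, with a log2 fold-change of -1.11 (SE 0.056, BH-adjusted P 1.62e-12) and no overlap. Kcnq3 was higher, at 44.4, 44.3 and 42.9 CPM in WT and 48.1, 53.3 and 47.9 CPM in Fmr1-KO, with a log2 fold-change of 0.18 (SE 0.046, BH-adjusted P 0.00307) and no overlap.

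**Figure D4:**
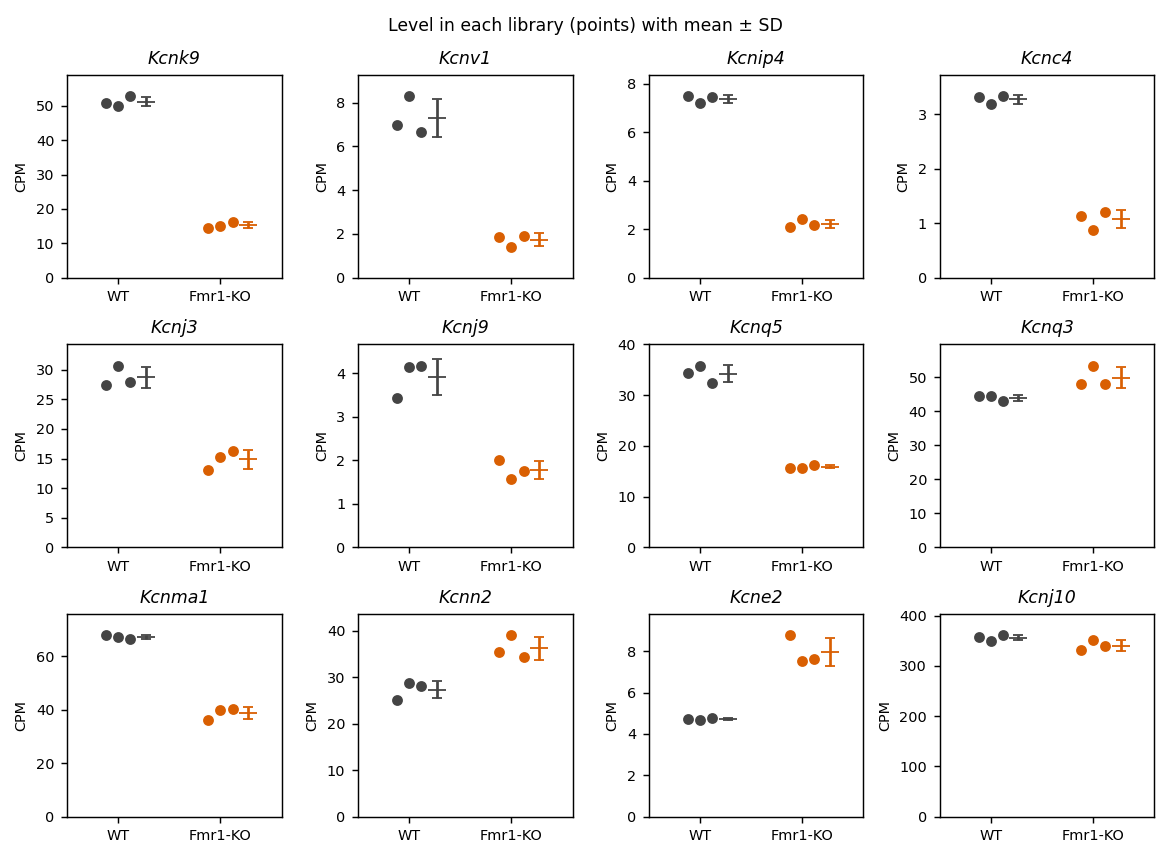
Level of 12 members in each library, in CPM from 0 (vertical axis), for WT (dark grey) and Fmr1-KO (orange), with the mean and SD beside the 3 points. Kcnk9, Kcnv1, Kcnip4, Kcnc4, Kcnj3, Kcnj9, Kcnq5 and Kcnma1 are lower in every Fmr1-KO library, Kcnq3, Kcnn2 and Kcne2 are higher in every one, and the points of Kcnj10 overlap.

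The Kcnj genes encode inward rectifiers, and their members split by role. The G protein-gated (GIRK) channels, which mediate slow inhibition by GABA-B, opioid, adenosine and other receptors, are encoded by Kcnj3, Kcnj5, Kcnj6 and Kcnj9, and all 4 were lower. Kcnj3 (ENSMUSG00000026824.11, chr2:55435970-55598145, plus strand), the subunit shared by most neuronal GIRK channels, stood at 27.5, 30.7 and 27.96 CPM in WT and 13.1, 15.2 and 16.3 CPM in Fmr1-KO. Its log2 fold-change was -0.95 (SE 0.070, BH-adjusted P 5.60e-10). Kcnj9 (ENSMUSG00000038026.12, chr1:172320501-172329318, minus strand) stood at 3.42, 4.14 and 4.17 CPM in WT and 2.00, 1.57 and 1.75 CPM in Fmr1-KO, with a log2 fold-change of -1.14 (SE 0.14, BH-adjusted P 1.47e-06). Kcnj6, the subunit altered in the weaver mouse, stood at 3.34, 2.66 and 2.40 CPM in WT and 1.35, 1.67 and 1.32 CPM in Fmr1-KO, with a log2 fold-change of -0.96 (SE 0.17, BH-adjusted P 9.22e-05). Kcnj5, the main atrial partner of Kcnj3, was under 1 CPM in every library and had a log2 fold-change of -1.10 (SE 0.29, BH-adjusted P 0.004). None of these genes overlapped between genotypes.

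The strong inward rectifiers of neurons and muscle, Kcnj2, Kcnj4, Kcnj12 and Kcnj14, hold the resting potential near the potassium equilibrium. Kcnj4 (ENSMUSG00000044216.7, chr15:79483714-79505241, minus strand), a forebrain member, stood at 10.99, 13.4 and 14.5 CPM in WT and 4.95, 4.77 and 5.81 CPM in Fmr1-KO. Its log2 fold-change of -1.32 (SE 0.11, BH-adjusted P 1.81e-09) was the largest among the Kcnj genes, and the genotypes were far apart. Kcnj12 and Kcnj2 had log2 fold-changes of -0.74 (BH-adjusted P 2.03e-04) and -0.46 (BH-adjusted P 8.77e-04). Kcnj14 had one of -0.68 (SE 0.35, BH-adjusted P 0.127) on a mean of 12 counts, with overlapping libraries.

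The ATP-sensitive (KATP) channels pair a pore from Kcnj8 or Kcnj11 with a sulfonylurea receptor from Abcc9 or Abcc8. Kcnj8 and Abcc9, which are typical of vascular mural cells, had log2 fold-changes of -0.75 (BH-adjusted P 0.0513) and -1.14 (BH-adjusted P 1.69e-05). Kcnj8 had no overlap between genotypes and was called without WT replicate 2 (-0.87, BH-adjusted P 0.0424). Kcnj11 and Abcc8, the neuronal and pancreatic pair, had values near 0, at 0.042 (BH-adjusted P 0.71) and -0.054 (BH-adjusted P 0.651). The mural marker genes in the endothelial and mural list above went both ways. Rgs5 and Vtn were lower, with log2 fold-changes of -0.91 (BH-adjusted P 2.27e-10) and -0.89 (BH-adjusted P 2.47e-06), and Acta2 and Pdgfrb were higher, at 0.87 (BH-adjusted P 3.51e-14) and 0.47 (BH-adjusted P 2.96e-08). Their part in the values of Kcnj8 and Abcc9 was not tested.

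The glial rectifiers Kcnj10 and Kcnj16 take up extracellular potassium in astrocytes. Kcnj10 (ENSMUSG00000044708.5, chr1:172341210-172374085, plus strand) stood at 358, 350.0 and 361 CPM in WT and 331, 351 and 339 CPM in Fmr1-KO, with overlapping libraries and a log2 fold-change of -0.066 (SE 0.030, BH-adjusted P 0.0849). It was called without Fmr1-KO replicate 2 (-0.089, BH-adjusted P 0.0195). Kcnj16 had a log2 fold-change of -0.0099 (BH-adjusted P 0.937), with a sign that changed under library totals alone and upper-quartile normalization. Kcnj10 lies 11.9 kb from Kcnj9 on the opposite strand, and Kcnj16 lies 38.2 kb from Kcnj2 on the same strand. In both pairs the glial gene was not called and its neighbour was lower.

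Kcnj13, a rectifier of epithelia such as the choroid plexus and the retinal pigment epithelium, was the only Kcnj gene called higher. It stood at 3.28, 2.63 and 2.91 CPM in WT and 5.63, 4.21 and 3.91 CPM in Fmr1-KO, with a log2 fold-change of 0.64 (SE 0.14, BH-adjusted P 9.99e-04) and no overlap. Kcne2, an accessory subunit that is also abundant in the choroid plexus, rose by the largest amount of any member, at 4.75, 4.69 and 4.79 CPM in WT and 8.77, 7.51 and 7.62 CPM in Fmr1-KO, with a log2 fold-change of 0.75 (SE 0.096, BH-adjusted P 1.89e-06). Its highest WT library was far below its lowest Fmr1-KO library. A list of 8 other choroid plexus genes, chosen after these values were seen, had 6 higher and 0 lower, beside 20.7% and 21.9% of all genes tested, and summed to 1298 to 1362 CPM in WT and 1694 to 2014 CPM in Fmr1-KO. Of that list, Ttr (transthyretin) held most of the summed CPM, not scaled by length, with a log2 fold-change of 0.63, and Kl and Enpp2 were the ones not called. The part of these cells in the rise of Kcnj13 and Kcne2 was not tested. The other Kcne members were not called. Kcne1l had a log2 fold-change of -0.10 (BH-adjusted P 0.0587) without overlap and passed the threshold with the stricter filter (-0.10, BH-adjusted P 0.0495). Kcne4 had a log2 fold-change of 0.20 (BH-adjusted P 0.613), with overlapping libraries.

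The promoters of members that moved in opposite directions are shown to let their base composition be seen beside the values. Kcnj3 and Kcnj9 stand for the GIRK genes that were lower together, Kcnj4 for the largest decrease among the Kcnj genes, and Kcnj13 for the increase. Each run holds 250 bases before and 50 bases after the annotated start, 5′ to 3′, from RefSeq on GRCm38.p6, with the CG dinucleotides in capitals.
Kcnj3 promoter, chr2:55435720-55436019, plus strand: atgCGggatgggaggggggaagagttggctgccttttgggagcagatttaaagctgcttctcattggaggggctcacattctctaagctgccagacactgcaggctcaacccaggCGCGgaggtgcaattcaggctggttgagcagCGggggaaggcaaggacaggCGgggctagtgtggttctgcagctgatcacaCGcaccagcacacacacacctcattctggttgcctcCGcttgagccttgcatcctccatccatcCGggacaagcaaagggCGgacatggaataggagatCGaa
Kcnj9 promoter, chr1:172329273-172329572, minus strand: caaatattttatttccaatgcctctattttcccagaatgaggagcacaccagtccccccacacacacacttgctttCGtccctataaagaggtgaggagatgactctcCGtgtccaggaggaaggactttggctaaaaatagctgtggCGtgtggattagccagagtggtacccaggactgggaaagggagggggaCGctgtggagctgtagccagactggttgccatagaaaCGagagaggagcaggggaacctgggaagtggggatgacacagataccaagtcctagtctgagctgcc
Kcnj4 promoter, chr15:79505192-79505491, minus strand: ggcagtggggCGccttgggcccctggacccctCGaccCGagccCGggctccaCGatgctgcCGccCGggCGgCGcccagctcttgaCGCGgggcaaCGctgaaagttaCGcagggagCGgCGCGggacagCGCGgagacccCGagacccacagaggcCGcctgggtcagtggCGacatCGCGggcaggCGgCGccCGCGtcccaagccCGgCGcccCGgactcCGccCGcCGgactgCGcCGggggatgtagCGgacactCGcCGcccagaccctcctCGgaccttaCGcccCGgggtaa
Kcnj13 promoter, chr1:87394680-87394979, minus strand: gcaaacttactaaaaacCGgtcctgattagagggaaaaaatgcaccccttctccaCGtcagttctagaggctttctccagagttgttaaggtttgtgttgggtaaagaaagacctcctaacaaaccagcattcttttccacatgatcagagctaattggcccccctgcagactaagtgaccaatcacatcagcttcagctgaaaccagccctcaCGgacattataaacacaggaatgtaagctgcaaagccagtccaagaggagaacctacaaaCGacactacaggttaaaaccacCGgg
These hold 10, 5, 41 and 5 CG dinucleotides. The promoter table matched 61 members with 85 promoters, whose median was 10 CG dinucleotides, beside 7 for all 32851 promoters. The median was 9 for the promoters of members called lower, 9 for those called higher and 14.5 for those not called. The letters TATAAA, searched on both strands, stood in 4 of the 85 member promoters (4.71%), beside 13.6% of all promoters. The genes were Kcnab1, Kcnj9, Kcnj13 and Kcnj16, so the match occurred in members called lower, higher and not called. The letters GGGCGG, searched on both strands, stood in 43 of the 85 (50.6%), beside 35.7% of all, and among the 4 promoters shown they occurred in Kcnj3 and Kcnj4.

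The Kcnk genes encode K2P leak channels, which carry background potassium current. All 10 members were called, 6 lower and 4 higher, and the subfamily sum overlapped between genotypes, at 53.02 ± 1.32 CPM per kb in WT and 53.9 ± 2.08 CPM per kb in Fmr1-KO. The acid-sensitive TASK channels are encoded by Kcnk3 and Kcnk9, and both were lower. Kcnk9 (ENSMUSG00000036760.7, chr15:72501089-72546340, minus strand), an imprinted gene expressed from the maternal allele in brain, stood at 50.9, 50.03 and 52.8 CPM in WT and 14.6, 15.1 and 16.3 CPM in Fmr1-KO. Its log2 fold-change of -1.74 (SE 0.052, BH-adjusted P 7.99e-16) had the smallest adjusted P of any member, and its genotypes were far apart. Kcnk3 had a log2 fold-change of -0.39 (BH-adjusted P 0.0295). It was not called with DESeq2 (-0.39, BH-adjusted P 0.0614), nor without Fmr1-KO replicate 2 (-0.21, BH-adjusted P 0.181), WT replicate 1 (-0.36, BH-adjusted P 0.0888) or WT replicate 2 (-0.38, BH-adjusted P 0.0544).

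The TREK channels open to stretch, lipids and heat. Kcnk2 stood at 70.1, 67.8 and 69.8 CPM in WT and 74.7, 75.5 and 76.3 CPM in Fmr1-KO, with a log2 fold-change of 0.13 (SE 0.035, BH-adjusted P 0.00687). Kcnk10 stood at 60.1, 54.02 and 57.4 CPM in WT and 65.8, 67.2 and 63.7 CPM in Fmr1-KO, with one of 0.20 (SE 0.042, BH-adjusted P 6.89e-04). Both were slightly higher in Fmr1-KO with no overlap. Kcnk4, the related TRAAK channel, had the largest decrease of any member, at 0.921, 1.09 and 0.629 CPM in WT and 0.154, 0.196 and 0.144 CPM in Fmr1-KO, with a log2 fold-change of -2.40 (SE 0.35, BH-adjusted P 9.11e-06). It was a low gene, with 5, 6 and 5 counts in the Fmr1-KO libraries, and passed the count minimum only through WT.

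Of the remaining leak channels, Kcnk5, a channel opened by alkaline pH and known from kidney and other epithelia, stood at 2.39, 2.18 and 1.62 CPM in WT and 3.72, 3.46 and 2.85 CPM in Fmr1-KO, with a log2 fold-change of 0.69 (SE 0.16, BH-adjusted P 0.00117) and no overlap. Kcnk6 was lower, at 2.56, 2.39 and 2.85 CPM in WT and 1.17, 1.57 and 1.81 CPM in Fmr1-KO, with a log2 fold-change of -0.77 (SE 0.17, BH-adjusted P 8.21e-04). The halothane-inhibited channels Kcnk12 and Kcnk13, the latter known from microglia, were lower, with log2 fold-changes of -1.69 (BH-adjusted P 0.00333) and -0.38 (BH-adjusted P 0.0312). Kcnk12 rested on few reads, with 10, 1 and 5 counts in Fmr1-KO, and passed the count minimum only through WT. The call of Kcnk13 was lost with DESeq2 (-0.38, BH-adjusted P 0.115), without Fmr1-KO replicate 1 (-0.32, BH-adjusted P 0.116), without Fmr1-KO replicate 3 (-0.39, BH-adjusted P 0.066) and without WT replicate 3 (-0.30, BH-adjusted P 0.137). Microglial markers were mostly lower, as given above, while Kcna3, also found in microglia, was not called. The part of microglia in the value of Kcnk13 was not tested. Kcnk1, the most abundant leak channel gene at 25.6 CPM per kb, stood at 54.2, 53.2 and 56.7 CPM in WT and 58.98, 55.8 and 64.6 CPM in Fmr1-KO, with overlapping libraries and a log2 fold-change of 0.13 (SE 0.047, BH-adjusted P 0.0315). Its call was lost with DESeq2 (0.13, BH-adjusted P 0.0596), without Fmr1-KO replicate 1 (0.14, BH-adjusted P 0.0527), Fmr1-KO replicate 3 (0.070, BH-adjusted P 0.267), WT replicate 1 (0.12, BH-adjusted P 0.094) and WT replicate 2 (0.11, BH-adjusted P 0.099).

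The BK channel is a pore from Kcnma1 that opens with voltage and calcium, with beta subunits from the Kcnmb genes. Kcnma1 stood at 67.8, 67.2 and 66.5 CPM in WT and 36.3, 39.9 and 40.1 CPM in Fmr1-KO, with a log2 fold-change of -0.79 (SE 0.043, BH-adjusted P 5.24e-12). The genotypes were far apart. Kcnmb4, the beta subunit typical of neurons and the most abundant Kcnm gene per kb, stood at 14.7, 17.4 and 17.1 CPM in WT and 12.6, 10.2 and 11.7 CPM in Fmr1-KO, with a log2 fold-change of -0.51 (SE 0.082, BH-adjusted P 3.35e-05). Kcnmb2, an inactivating beta subunit, had one of -0.76 (BH-adjusted P 2.64e-04). Kcnmb1, the beta subunit of smooth muscle, was not called, at 0.11 (BH-adjusted P 0.678), with overlapping libraries. It lies within the span of Kcnip1 on the opposite strand. The subfamily sum was 10.2 ± 0.375 CPM per kb in WT and 6.70 ± 0.379 CPM per kb in Fmr1-KO. Of the leucine-rich gamma subunits of BK channels, Lrrc55 was lower at -0.44 (BH-adjusted P 1.39e-05), while Lrrc26, Lrrc38 and Lrrc52 had too few counts to be tested.

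The sodium-activated channel gene Kcnt1, the most abundant of its group at 1.76 CPM per kb, stood at 19.6, 19.5 and 20.5 CPM in WT and 13.9, 13.7 and 13.4 CPM in Fmr1-KO. Its log2 fold-change was -0.54 (SE 0.061, BH-adjusted P 2.71e-07), with no overlap. Kcnt2, its paralog, had a log2 fold-change of -0.23 (BH-adjusted P 0.0944), and passed the threshold without Fmr1-KO replicate 2 (-0.31, BH-adjusted P 0.0477) and without WT replicate 3 (-0.30, BH-adjusted P 0.0458). Kcnu1, a channel of sperm, had 0.048 (BH-adjusted P 0.808).

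The Kcnn genes encode SK channels, which open with calcium and produce an after-hyperpolarization that follows firing, and they were the one subfamily whose sum was higher in all 3 Fmr1-KO libraries than in any WT library, at 7.92 ± 0.185 CPM per kb in WT and 9.92 ± 0.297 CPM per kb in Fmr1-KO. Kcnn2 stood at 25.2, 28.7 and 28.1 CPM in WT and 35.4, 39.00 and 34.3 CPM in Fmr1-KO, with a log2 fold-change of 0.41 (SE 0.058, BH-adjusted P 7.50e-06). Kcnn3 stood at 26.9, 25.4 and 26.5 CPM in WT and 32.6, 33.3 and 34.7 CPM in Fmr1-KO, with a log2 fold-change of 0.35 (SE 0.050, BH-adjusted P 6.00e-06). Both genes were higher in each Fmr1-KO library than in any WT library. Kcnn1 and the intermediate-conductance channel Kcnn4 were not called, with log2 fold-changes of 0.12 (BH-adjusted P 0.313) and -0.37 (BH-adjusted P 0.25).

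The 4 remaining transcripts had small differences. Kcnq1ot1, the imprinted antisense RNA at the Kcnq1 locus, stood at 11.9, 10.01 and 11.7 CPM in WT and 11.1, 15.7 and 15.1 CPM in Fmr1-KO, with overlapping libraries and a log2 fold-change of 0.32 (SE 0.10, BH-adjusted P 0.017). Its call was lost without Fmr1-KO replicate 2 (0.23, BH-adjusted P 0.111), Fmr1-KO replicate 3 (0.25, BH-adjusted P 0.0875) and WT replicate 2 (0.24, BH-adjusted P 0.0771). Kcnq1 itself had a mean of 2.33 counts and was no member. Kcnd3os and Kcnmb4os2, which overlap Kcnd3 and Kcnmb4 on the opposite strand by 0.625 and 0.715 kb, had log2 fold-changes of -0.16 (BH-adjusted P 0.642) and -0.065 (BH-adjusted P 0.793). Kcnrg had -0.098 (BH-adjusted P 0.65).

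Within several channel types the subunits moved in different directions, so that their proportions differed between genotypes. The pairs below were chosen after the values were seen, so their ratios are given as a description with no test. They were taken within each library from the counts, which leaves out any scaling between libraries. The counts were not divided by length, so a ratio is compared between genotypes and does not rank its 2 genes. The count ratio of Kcnq5 to Kcnq3 was 0.780 ± 0.025 in WT and 0.320 ± 0.023 in Fmr1-KO (SD, n = 3). This ratio of M-channel subunits was thus lower in every Fmr1-KO library. Between leak channels, the ratio of Kcnk9 to Kcnk2 was 0.740 ± 0.015 in WT and 0.203 ± 0.0096 in Fmr1-KO, and that of Kcnk9 to Kcnk10 was 0.898 ± 0.044 in WT and 0.234 ± 0.019 in Fmr1-KO. The ratio of Kcnip4 to Kcnip3 was 0.126 ± 0.0062 in WT and 0.0347 ± 0.0038 in Fmr1-KO, and that of Kcnab1 to Kcnab3 was 1.17 ± 0.18 in WT and 0.504 ± 0.041 in Fmr1-KO. Between the calcium-activated types, the ratio of Kcnma1 to Kcnn2 was 2.47 ± 0.19 in WT and 1.07 ± 0.085 in Fmr1-KO. That of the neuronal Kcnj3 to the glial Kcnj10 was 0.0807 ± 0.0061 in WT and 0.0436 ± 0.0042 in Fmr1-KO. Where both members of a pair were lower or one was not called, the ratio also differed: it was 0.0319 ± 0.00054 in WT and 0.0122 ± 0.0015 in Fmr1-KO for Kcnc4 to Kcnc1, and 0.388 ± 0.017 in WT and 0.333 ± 0.012 in Fmr1-KO for Kcnd2 to Kcnd3. In none of the 9 pairs did the 3 WT and 3 Fmr1-KO libraries overlap.

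**Figure D5:**
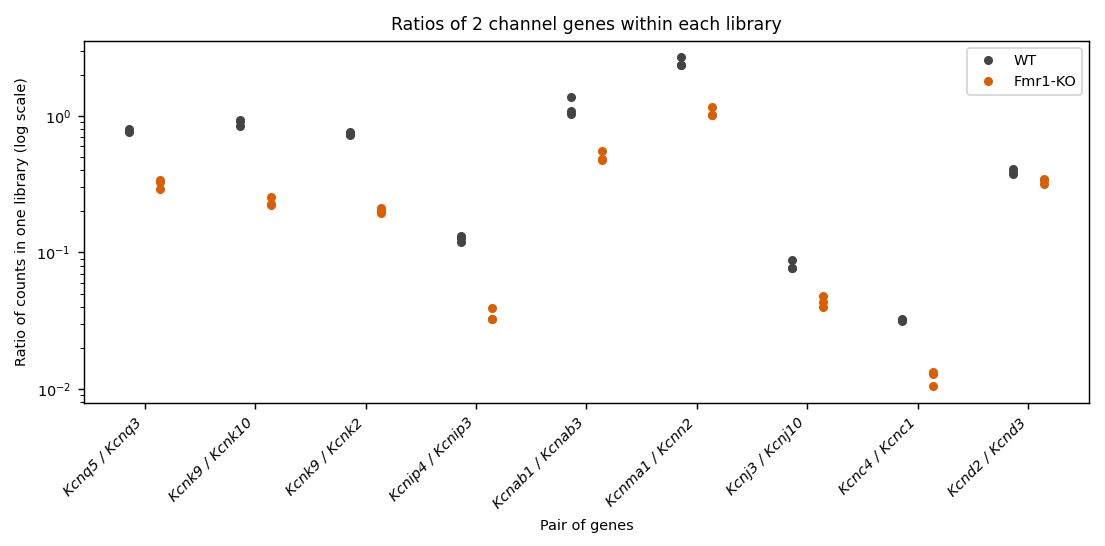
Ratio of the counts of 2 members within each library (vertical axis, log scale) for 9 pairs chosen after the values were seen, with 3 WT libraries in dark grey and 3 Fmr1-KO libraries in orange. The orange points lie below the grey ones in every pair, from 0.388 in WT and 0.333 in Fmr1-KO for Kcnd2 to Kcnd3 to 0.898 and 0.234 for Kcnk9 to Kcnk10.

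Of the channels whose mRNA or protein is known to be bound by FMRP, 5 were listed with earlier results of these data known. All 5, Kcnc1, Kcnd2, Kcnt1, Kcnma1 and Kcnmb4, were lower, beside 53.7% of all members and 21.9% of all tested genes. Their values are given above, and their median log2 fold-change was -0.51, beside -0.29 for all members. The list was short and chosen with results known, so it cannot show whether FMRP-bound channels differ from other members. The study's list of NMD targets, made in a mouse neuroblastoma cell line, holds 2 members, among them Kcnn3, which was higher as given above. Ank3, a channel partner given below, is on that list too and was lower, at a log2 fold-change of -0.13 (BH-adjusted P 0.00534). The study reports that its targets were generally lower in Fmr1-KO. It also describes targets that rose in abundance while their pre-mRNA rose more. Pre-mRNA levels were not examined here.

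Proteins that anchor, traffic or regulate these channels, other than the members, were also counted from a list of 26, of which 23 were tested. The list also held Tmem175, Tmem38a and Tmem38b, which encode channels of intracellular membranes. Of the 23 tested, 13 were lower and 4 higher, beside 21.9% and 20.7% of all genes tested, and the median log2 fold-change was -0.13. Of the axonal anchors, Sptbn4 had a log2 fold-change of -0.60 (BH-adjusted P 4.54e-09) and Ank3, the ankyrin that holds Kcnq channels at the initial segment, had one of -0.13 (BH-adjusted P 0.00534). Cntnap2, which with Cntn2 gathers Kv1 channels beside the node of Ranvier, was lower at a log2 fold-change of -0.13 (BH-adjusted P 0.0107), and Cntn2 was higher, at 197, 197 and 202 CPM in WT and 315, 309 and 312 CPM in Fmr1-KO, with a log2 fold-change of 0.65 (SE 0.029, BH-adjusted P 2.81e-13). The scaffolds Dlg2 and Dlg4, which cluster Kv1 and Kir2 channels, were lower at -0.65 (BH-adjusted P 1.26e-12) and -0.36 (BH-adjusted P 9.58e-09), and Dlg1 was higher at 0.10 (BH-adjusted P 0.0233). Lgi1, a secreted epilepsy protein that acts on Kv1 channels, and its receptor Adam22 were lower at -0.73 (BH-adjusted P 6.19e-08) and -0.23 (BH-adjusted P 7.79e-06). Vapa and Vapb, which tether clusters of Kcnb channels to the endoplasmic reticulum, were lower at -0.14 (BH-adjusted P 9.76e-04) and -0.13 (BH-adjusted P 0.00228). Nedd4l, a ubiquitin ligase that acts on Kcnq channels, was higher at 0.34 (BH-adjusted P 4.73e-08), as was the lysosomal channel gene Tmem175 at 0.15 (BH-adjusted P 0.0336). Amigo1, Adam23, Tmem38a, Tmem38b, Abcc8 and Rest, the last a repressor of neuronal genes, were not called. The calls of Cntnap2, Dlg1 and Tmem175 were lost when single libraries were left out: Cntnap2 without Fmr1-KO replicate 1 (-0.098, BH-adjusted P 0.0839), Dlg1 without either of Fmr1-KO replicates 1 and 2 or of WT replicates 1 and 3 (BH-adjusted P up to 0.0917), and Tmem175 without Fmr1-KO replicate 2 or 3 or WT replicate 1 or 3 (BH-adjusted P up to 0.135).

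The sodium-potassium pump builds the gradient that these channels use. Of 11 genes for its subunits and FXYD regulators, 7 were called, beside 42.6% of all genes tested. Of the beta subunits, Atp1b1 and Atp1b2 were lower, with log2 fold-changes of -0.44 (BH-adjusted P 2.44e-10) and -0.090 (BH-adjusted P 0.0183), and Atp1b3 was not called. The call of Atp1b2 was lost without Fmr1-KO replicate 1 (-0.075, BH-adjusted P 0.0908), without WT replicate 1 (-0.069, BH-adjusted P 0.118) and under library totals alone (-0.062, BH-adjusted P 0.0965). Of the regulators, Fxyd7 and Fxyd6 were lower, with log2 fold-changes of -0.70 (BH-adjusted P 3.11e-04) and -0.17 (BH-adjusted P 1.66e-04), Fxyd1 was higher at 0.36 (BH-adjusted P 4.87e-04), and Fxyd2 was not called.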

How the data were processed

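RNA was measured in 6 poly(A) libraries, 3 WT and 3 Fmr1-KO, whose genotype and number the labels give. Raw counts per gene name were deposited by the authors. According to their methods, they trimmed the reads with FastP, aligned them to GRCm38.p6 with STAR and counted them over exons with featureCounts in reverse-stranded mode, so antisense genes were counted apart, while isoforms were not. The labels name STAR 2.7.6a and Subread 2.0.1.

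Counts were tested with edgeR 4.0.16 (R 4.3.3): filterByExpr, TMM, glmQLFit and glmQLFTest, 2-sided, genotype as the only term, Benjamini-Hochberg adjustment. SE is the log2 fold-change divided by the square root of F. All 82 members were tested. Exon lengths (union of exons) and coordinates came from GENCODE M21 on GRCm38. A subfamily sum adds the CPM per kb of its members. The test was checked on simulated data in which few genes changed, each by 2-fold. That setting differs from the many smaller changes called here.

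The members and lists were chosen with earlier results of these data known. Genes with full values are the 10 largest called changes each way at 1 CPM or more without overlap, the most abundant member of each subfamily, FMRP-linked channels, called NMD targets, and called partners and pump genes. Others are named within their subfamily. Alternatives were DESeq2 1.42.0, RLE, upper-quartile and library-total scaling, no filter, a stricter filter (10 counts and 5 CPM), a minimum fold change of 1.2, a replicate block and leaving out each library. Libraries of 1 genotype varied beyond counting noise (chi-square per degree of freedom 2.91 in WT and 3.16 in Fmr1-KO). Protein sequences were not used here. Results for some single genes are not reported here, although counts and sums over all members include them.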

Additional observations from a re-analysis of the deposited data

How the results depend on the processing

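Of the 56 called members, 35 kept the same call in all alternatives that tested them, 11 lost it only when a minimum fold change of 1.2 was required, and 10 lost it elsewhere. With that minimum, 31 members were lower and 4 higher, 8 partners were lower and 2 higher, and 3 pump genes were called, since the threshold itself removes small changes. Of all 16976 genes tested, 1340 were lower and 883 higher with it. The stricter filter kept 51 members, of which 30 were lower and 10 higher, beside 3158 and 3083 of 12142 genes. The median log2 fold-change of those members was -0.233, and with library totals alone the median of the members was -0.267. DESeq2 called 42 members lower and 11 higher, beside 3258 and 2801 of 16976 genes. Leaving out 1 library gave 39 to 45 members lower and 9 to 12 higher. Of the 17213 to 17253 genes tested in those fits, 3300 to 3569 were lower and 2969 to 3307 higher. The members' median was then -0.303 to -0.272. From 2 to 4 partners were higher, with 2 without Fmr1-KO replicate 2, WT replicate 1 or WT replicate 3. No scaling moved the median of all genes by more than 0.0277 on the log2 scale.

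The replicate block gave 44 members lower and 13 higher, 13 partners lower and 4 higher and 7 pump genes called, and Kcnh7 was called in it. In that fit 3694 of 16976 genes were lower and 3488 higher. Libraries with the same number did not deviate together over the tested genes (correlations -0.0289, 0.0323 and -0.0147). This check cannot show whether they shared a preparation, which the labels do not state.

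Signs changed for 8 members that were not called, each with a log2 fold-change smaller than its SE. With 1 library left out, the log2 fold-change ran from -0.0936 to 0.125 for Kcna3, from -0.361 to 0.0887 for Kcna5, from -0.0109 to 0.0273 for Kcnd3, from -0.0304 to 0.378 for Kcne4, from -0.0798 to 0.585 for Kcng3, from -0.0187 to 0.0883 for Kcnj11, from -0.059 to 0.0373 for Kcnj16 and from -0.186 to 0.0748 for Kcnmb4os2. Kcnj16 stood at 0.0178 with library totals alone and at 0.000656 with upper-quartile normalization. The cause was not tested. The most abundant member per kb was the same in 13 of 13 subfamilies when the longest transcript replaced the union of exons.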
